A study of Mus musculus with 24 samples.

Results

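Hepatic gene expression of XY mice that lack the Mup cluster (mKO) was compared with that of XY wildtype mice (mWT), and all genes outside the Mup family are described here by pathway. The 12 libraries were those of the 6 mKO and 6 mWT mice among the 24 libraries of the series, taken by their labels, and the remaining 12 came from XX mice (6 fKO and 6 fWT). Both groups carried the strain background C57/BL6N, were 12 weeks old, ate standard chow and gave liver RNA from 1 mouse per library. In mKO mice the whole cluster was deleted by CRISPR/Cas9 on both alleles. The line goes back to a single male founder, so that 1 deletion event stands behind every mKO mouse. Any other change of that founder that is linked to the cluster cannot be told apart from the deletion. Unlinked changes could pass to both genotypes in the heterozygous intercross that followed. For the body composition scan the mice had been fasted and anesthetized with isoflurane, and the labels give no time of day at which livers were taken. Per library, 15607671 to 20133292 reads were counted on genes in mWT and 15361901 to 24684788 in mKO mice. A sum of 3 counts, taken as the floor, corresponds to at most 0.191 CPM in mWT and 0.199 CPM in mKO mice.

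Major urinary proteins are small carrier proteins of the lipocalin family which the liver of male mice secretes in very large amounts, driven by pulsatile growth hormone and androgens, and which the kidney passes into urine. They bind volatile pheromones, and they leave the hepatocyte through the same endoplasmic reticulum route as apolipoproteins, clotting factors and acute phase proteins. Their loss therefore removes a large secretory product from hepatocytes, which also oxidize fatty acids under the nuclear receptor PPARα, detoxify electrophiles under NRF2 and follow the circadian clock.

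The labels were checked first. The 22 Mup genes together were at 17028 to 37393 CPM in the 6 mWT mice. In the mKO group, 5 libraries held 0 Mup reads and mKO mouse 2 held 10, which is 0.457 CPM. The 4 Y-linked genes (Ddx3y, Eif2s3y, Kdm5d and Uty) summed to between 172 and 232 CPM in every XY library and to at most 0.0754 CPM in the XX libraries. The tissue label was met by the hepatocyte markers, of which all 8 were tested and which summed to 98239 to 132699 CPM in mWT and 104278 to 130690 CPM in mKO mice. The cut-off used below, an unadjusted p-value under 0.01 in edgeR, was met by 3.39% of all genes tested outside the Mup family. Of the 8 hepatocyte markers, 1 (Ttr) passed it. Of the markers of other cells, 0 passed it for Kupffer cells (10 tested), sinusoidal endothelial cells (8 tested), stellate cells (9 tested), cholangiocytes (3 tested) or lymphocytes (3 tested). With so few markers, 0 lies near the share of all genes, and nothing is read from it. The summed levels of these markers overlapped between the groups. The neutrophil and pancreatic acinar markers stayed below the filter, with 5 of the 7 acinar markers at 0 counts in all XY libraries. The erythroid markers, carried by blood left in the tissue, summed to 149 to 214 CPM in mWT and 155 to 260 CPM in mKO mice, with a median of 0.43. In bulk tissue, fewer cells of a type and less RNA per cell cannot be told apart.

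Outside the Mup family, 12313 genes entered edgeR's quasi-likelihood test. An unadjusted p-value under 0.01, the cut-off of the study, was met by 417 of them (3.39%), with 222 (1.80%) on the higher and 195 (1.58%) on the lower side in mKO mice. After Benjamini-Hochberg adjustment over all 12330 tested genes, which include 17 Mup genes, 9 genes (0.0731%) had an adjusted p-value under 0.05. The words rose and fell are kept for these 9. With the Mup genes removed before the test, 2 genes, Zfp37 and Glo1, stayed under 0.05. Genes described as higher or lower at the cut-off passed the unadjusted threshold alone. In 72 genes (0.585%) all 6 mKO mice lay above all 6 mWT mice, and in 45 genes (0.365%) they lay below them. Over all 12313 genes the median log2 fold change was 0.00 with quartiles of −0.10 and 0.09, so that most differences were small. The values of the 9 genes are drawn mouse by mouse.

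**Figure D1:**
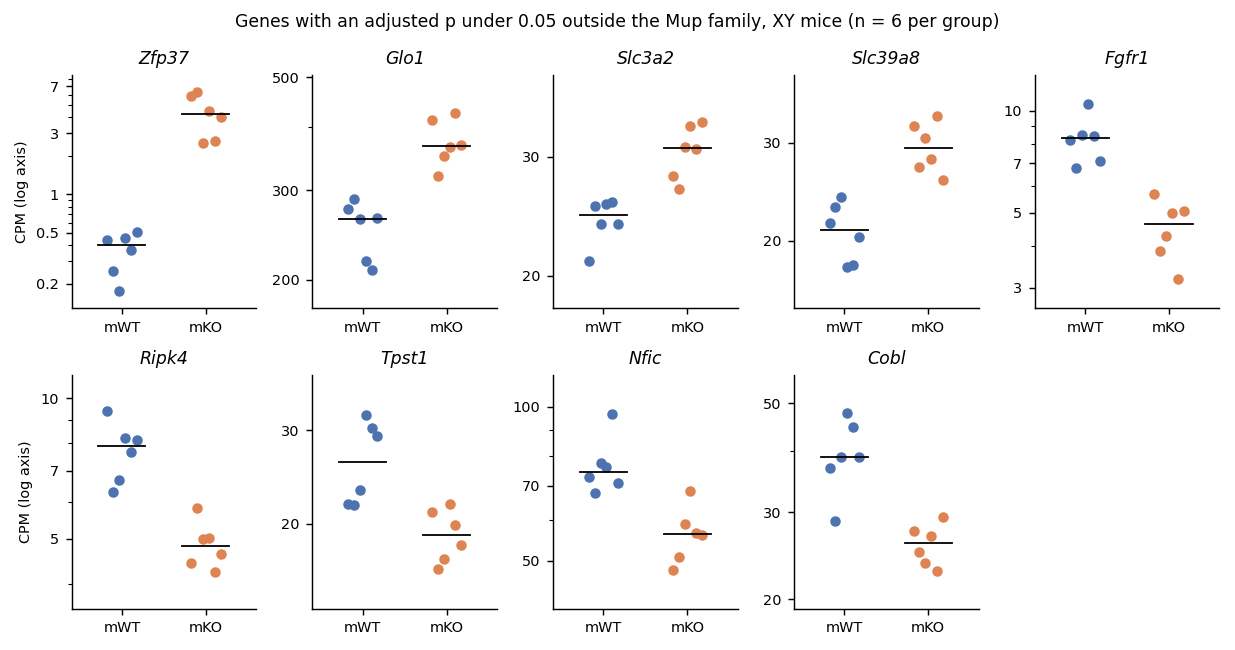
Expression in CPM (log axis) of the 9 genes outside the Mup family with an adjusted p-value under 0.05, one panel per gene. Each point is 1 mouse (6 mWT in blue, 6 mKO in orange) and the line is the median. The groups do not overlap for Zfp37, Glo1, Slc3a2, Slc39a8, Fgfr1 and Ripk4, and they touch for Tpst1, Nfic and Cobl.

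Of these genes, 4 rose. Zinc finger protein 37 (Zfp37), a neighbour of the deleted cluster on chromosome 4, showed the largest difference of the 9, with 2.53 to 6.27 CPM in mKO and 0.176 to 0.509 CPM in mWT mice. The log2 fold change, given with its standard error (SE), came to 3.54 ± 0.32 (adjusted p = 3.17e-08 in edgeR), and the lowest mWT value lies at the floor of its library. Glo1, the glyoxalase that clears methylglyoxal with glutathione as its cofactor, ranged from 320 to 425 CPM (median 366) in mKO and from 209 to 289 CPM (median 264) in mWT mice, with a log2 fold change of 0.56 ± 0.09 (SE, adjusted p = 0.00145). Its annotated span on chromosome 17 (30584936 to 30626871) overlaps 3 genes of the other strand, among them Dnah8, and the strand setting of the counting is not given in the sources used here. Slc3a2, the heavy chain that brings several amino acid exchangers to the plasma membrane, lay between 26.9 and 33.8 CPM (median 30.9) in mKO and between 21.1 and 25.7 CPM (median 24.6) in mWT mice, with a log2 fold change of 0.34 ± 0.07 (SE, adjusted p = 0.0258). For Slc39a8, a zinc and manganese importer, the range was 25.7 to 33.5 CPM (median 29.3) in mKO and 17.9 to 24 CPM (median 20.9) in mWT mice, and the difference was 0.51 ± 0.11 (SE, adjusted p = 0.0457). In each of the 4 genes every mKO mouse exceeded every mWT mouse.

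The other 5 genes fell, and signalling genes were among them. Fgfr1, a receptor tyrosine kinase for fibroblast growth factors, was at 3.18 to 5.70 CPM (median 4.62) in mKO and 6.79 to 10.5 CPM (median 8.30) in mWT mice, with a log2 fold change of −0.87 ± 0.17 (SE, adjusted p = 0.0175 in edgeR). Ripk4, a serine/threonine kinase best known from the differentiation of epithelia, was at 4.24 to 5.81 CPM in mKO and 6.29 to 9.37 CPM in mWT mice (log2 fold change −0.67 ± 0.13 SE, adjusted p = 0.0194). The groups were apart for both kinases. Tpst1, which sulfates tyrosines of secreted proteins in the Golgi, had a log2 fold change of −0.47 ± 0.10 (SE, adjusted p = 0.0368), the transcription factor Nfic one of −0.45 ± 0.10 (SE, adjusted p = 0.0457) and the actin nucleator Cobl one of −0.60 ± 0.13 (SE, adjusted p = 0.0457). In these 3 genes the highest mKO value reached into the mWT range (21.8 against 21.7 CPM for Tpst1, 68.4 against 67.9 CPM for Nfic and 29.4 against 28.8 CPM for Cobl). Each of the 9 genes kept its direction and an unadjusted p-value under 0.01 in every alternative in which it was tested.

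Past these 9 come the genes with the next smallest p-values in each direction. The purine nucleoside phosphorylase gene Pnp was at 68.0 to 90.8 CPM in mKO and 43.4 to 66.2 CPM in mWT mice (log2 fold change 0.60 ± 0.13 SE, adjusted p = 0.0506), with a near copy, Pnp2, inside its span. Serpinb1a, an inhibitor of neutrophil proteases, was at 2.85 to 7.57 CPM in mKO and 0.732 to 2.81 CPM in mWT mice, and Acnat2, an acyltransferase of peroxisomes, at 14.4 to 35.9 CPM and 3.63 to 14.3 CPM. Their log2 fold changes were 1.45 and 1.25, with adjusted p-values of 0.0597 and 0.0804 in edgeR. The coiled-coil gene Ccdc107 had a log2 fold change of 0.35 (adjusted p = 0.0804) and the cytochrome P450 gene Cyp2d26 one of 0.32 (adjusted p = 0.0875). Each of these 5 genes was higher in every mKO mouse than in any mWT mouse. On the lower side were the monocarboxylate transporter Slc16a12 (log2 fold change −0.54, adjusted p = 0.0772), the GTPase activator Arhgap21 (−0.48, adjusted p = 0.0865), the scaffold Homer2 (−0.70, adjusted p = 0.0945), D16Ertd472e (−0.54, adjusted p = 0.0958) and Ttc39a (−1.88, adjusted p = 0.0945), which had at most 0.732 CPM in mKO mice. Of these, Arhgap21 alone was separated between the groups, at 30.1 to 36.3 CPM in mKO and 38.3 to 53.2 CPM in mWT mice.

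Before the pathways are described, a property that cuts across them has to be given. Genes were ordered by the length of their longest annotated transcript and divided into 5 classes of nearly equal size. In the shortest class (105 to 1983 bases) the median log2 fold change was 0.06, and 77 genes were higher and 14 lower at the cut-off. In the longest class (5264 to 123179 bases) the median was −0.05, with 13 genes higher and 72 lower. The libraries of a group were not alike in this respect. Measured against the mean of all 24 mice, the log2 difference between the shortest and the longest class ran from −0.128 to 0.119 in mWT mice. In mKO mice it ran from −0.0095 to 0.154, and mWT mouse 4 was the highest of its group. A correction was chosen after seeing the data, in which the trend over transcript length and GC content was estimated per library and entered as an offset. It brought the medians of the 5 classes to between −0.0028 and 0.0073, which follows from how the offsets are made. It gave 430 genes at the cut-off, 264 higher and 166 lower. What this property has to do with the deletion was not tested, and corrected values are given below for lists of short or long genes.

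**Figure D2:**
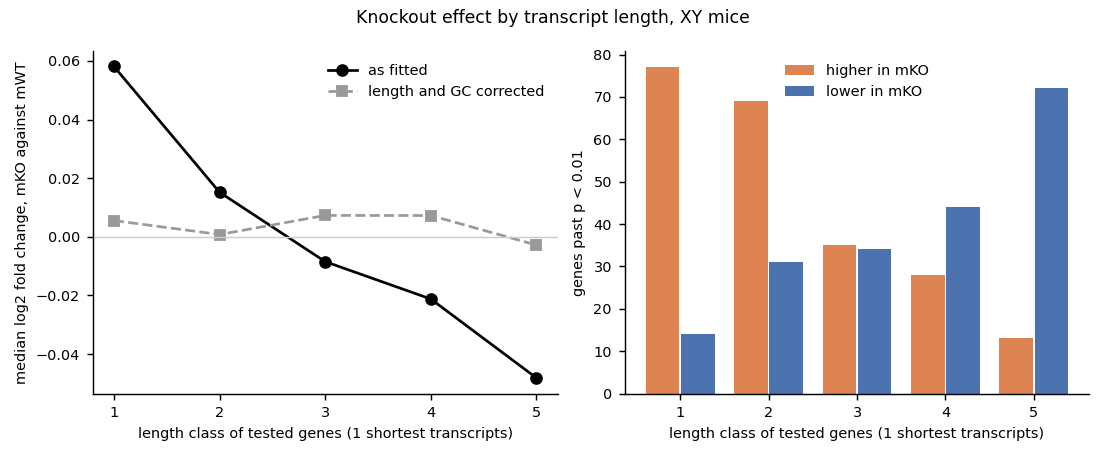
Left, median log2 fold change of mKO against mWT mice in each of 5 classes of the tested genes by transcript length, as fitted (black) and after correction for length and GC content (grey). Right, number of genes past the cut-off in each class, higher (orange) or lower (blue) in mKO mice. From the shortest to the longest class the uncorrected median goes from 0.06 to −0.05 and the lower genes go from 14 to 72.

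The pathways were compared through 37 gene lists, each by how many of its tested members passed the cut-off and by its median log2 fold change. The background for these counts is the 3.39% of all genes given above. The lists and their members were chosen with earlier results of these data known. A share above this background is therefore a description and not a test. Lists on the higher side included those of fatty acid oxidation, lipoproteins, glutathione enzymes and the proteasome. The medians of the bile acid list (0.13) and of the plasma carriers (0.12) lay in the same range. The lowest medians were those of the clock and the cell cycle lists.

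**Figure D3:**
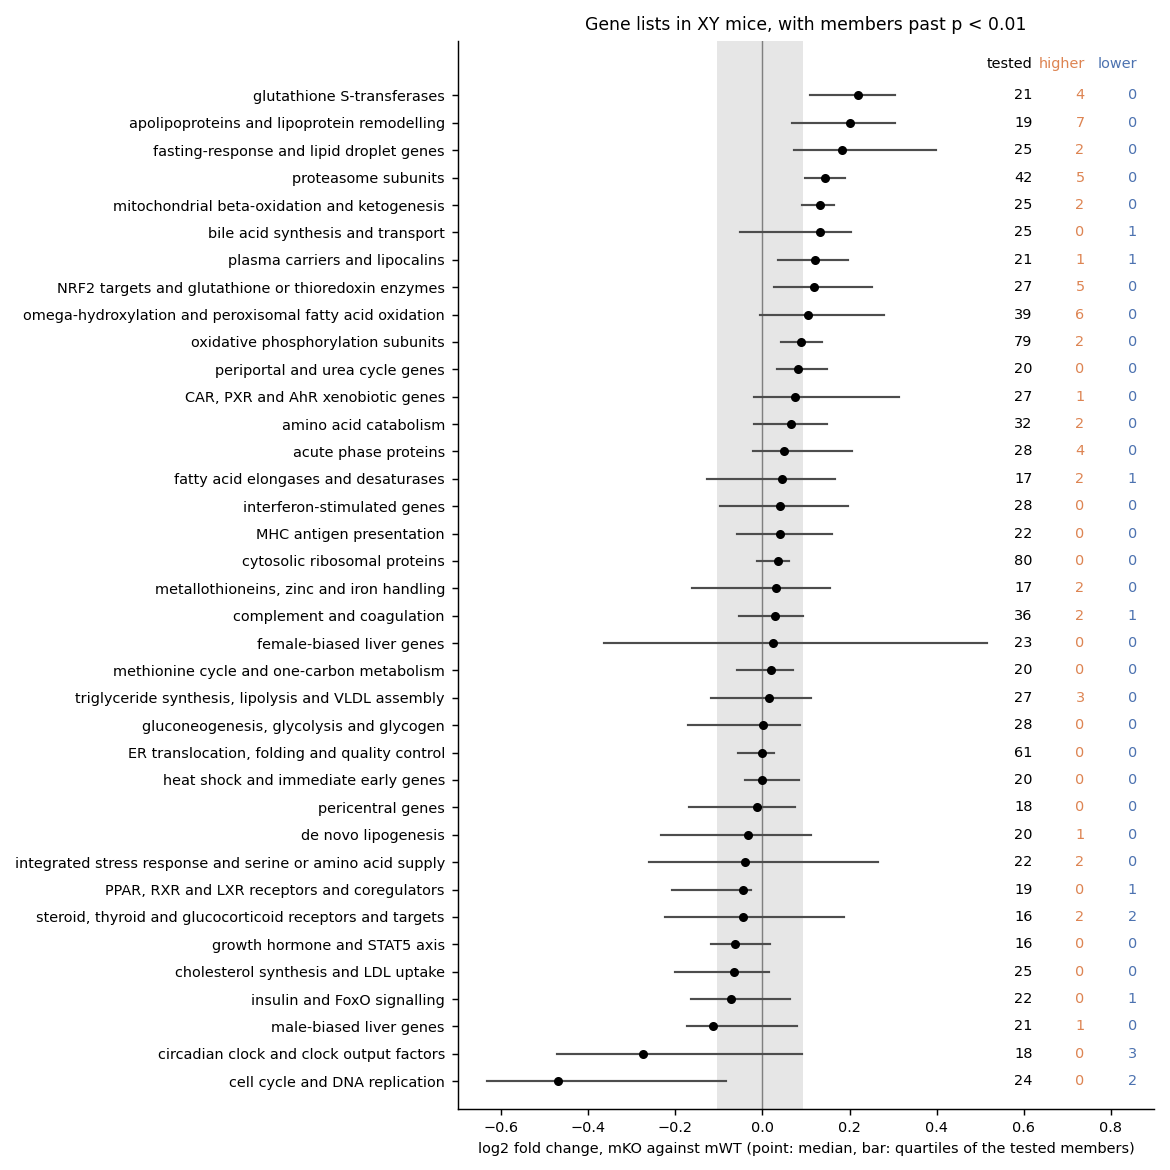
Median (point) and quartiles (bar) of the log2 fold change of mKO against mWT mice over the tested members of each of the 37 gene lists. The grey band gives the quartiles of all 12313 genes and the grey line their median, and the columns on the right give the members tested and those past the cut-off in each direction. The apolipoprotein list has the most members past the cut-off (7 of 19), and the medians run from −0.47 for the cell cycle to 0.22 for the glutathione S-transferases.

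Fatty acids enter oxidation by distinct routes. Medium and long chains are taken up by mitochondria, very long and branched chains are shortened in peroxisomes, and the Cyp4a enzymes hydroxylate the far (omega) end of the chain. All 3 routes are classical targets of PPARα. In the list of omega-hydroxylation and peroxisomal oxidation, 6 of 39 tested members (15.4%) were higher at the cut-off and 0 were lower, with a median of 0.10 and 29 members above 0. Cyp4a14 ranged from 56.2 to 687 CPM (median 249) in mKO and from 7.06 to 185 CPM (median 21.3) in mWT mice, with a log2 fold change of 2.85 ± 0.78 (SE, adjusted p = 0.152 in edgeR). Cyp4a10 was at 169 to 668 CPM (median 365) and 69.1 to 298 CPM (median 110), with a log2 fold change of 1.45 ± 0.42 (SE, adjusted p = 0.173). Both groups spread widely and overlapped, and reads can be shared among Cyp4a copies. The peroxisomal members differed by less and varied less among the mice. Crot, which makes the carnitine esters that leave the peroxisome, was at 720 to 1229.9 CPM in mKO and 298 to 670 CPM in mWT mice, with a log2 fold change of 0.72 ± 0.20 (SE, adjusted p = 0.156). Hacl1, the lyase of alpha-oxidation, was at 301 to 368 CPM and 196 to 299 CPM, with a log2 fold change of 0.49 ± 0.12 (SE, adjusted p = 0.106), and it overlaps an annotated gene of the same strand. The groups were apart for Crot and Hacl1. Acox2, the oxidase for branched chains and bile acid side chains, had a log2 fold change of 0.31 ± 0.09 (SE, adjusted p = 0.152). Acaa1b, a peroxisomal thiolase with a near copy, is the remaining member and lies outside the rule by which genes were named.

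In the mitochondrial list, 2 of 25 tested members (8.0%) were higher at the cut-off, among them the medium chain dehydrogenase Acadm (log2 fold change 0.31 ± 0.11 SE, adjusted p = 0.236 in edgeR). The differences were small, and 23 of the 25 members lay above 0, with a median of 0.13 and quartiles of 0.09 and 0.17. Cpt1a, the gate of fatty acids into mitochondria, had a log2 fold change of −0.25 with a 95% interval from −0.57 to 0.08. Among genes of fasting and lipid droplets, 2 of 25 (8.0%) were higher, with 21 of 25 above 0 and a median of 0.18. They were the droplet coat gene Plin2, at 316 to 443 CPM (median 403) in mKO and 158 to 401 CPM (median 272) in mWT mice, with a log2 fold change of 0.57 ± 0.14 (SE, adjusted p = 0.101), and the fatty acid translocase Cd36 (0.68 ± 0.22 SE, adjusted p = 0.215). Ppara itself was at 90.9 to 138 CPM in mKO and 108 to 157 CPM in mWT mice (log2 fold change −0.31, adjusted p = 0.454). Of 19 receptors and coregulators that act with it, 15 were below 0, but the median was −0.04 and only the acetyltransferase Ep300 passed (log2 fold change −0.34, adjusted p = 0.13).

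A single wildtype mouse stood apart in these genes. Mouse 2 of the mWT group had the highest value of its group for Cyp4a14 (185 CPM, the others 7.06 to 32.2 CPM), Cyp4a10 (298 CPM, the others 69.1 to 130 CPM), Acadm (392 CPM, the others 249.7 to 300.2 CPM), Plin2 and Cd36 (52.7 CPM, the others 17.1 to 27.2 CPM). Without it, 10 members of the omega and peroxisomal list and 4 of the mitochondrial list passed the cut-off. Leaving out any other mouse gave 5 to 7 members in the first list, whereas the mitochondrial list had 0 members past the cut-off without mWT mouse 3, 4, 5 or 6 or mKO mouse 2 or 5, and 1 without mKO mouse 3, 4 or 6 and after the length correction. The droplet list had 4 members without mWT mouse 1 or mKO mouse 4 and 1 without mWT mouse 3, 4 or 5 or mKO mouse 2, 3 or 5. The highest Cyp4a14 values among mKO mice belonged to mice 3 and 5 (677 and 687 CPM) and the lowest to mice 1, 4 and 6 (56.2 to 107 CPM).

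**Figure D4:**
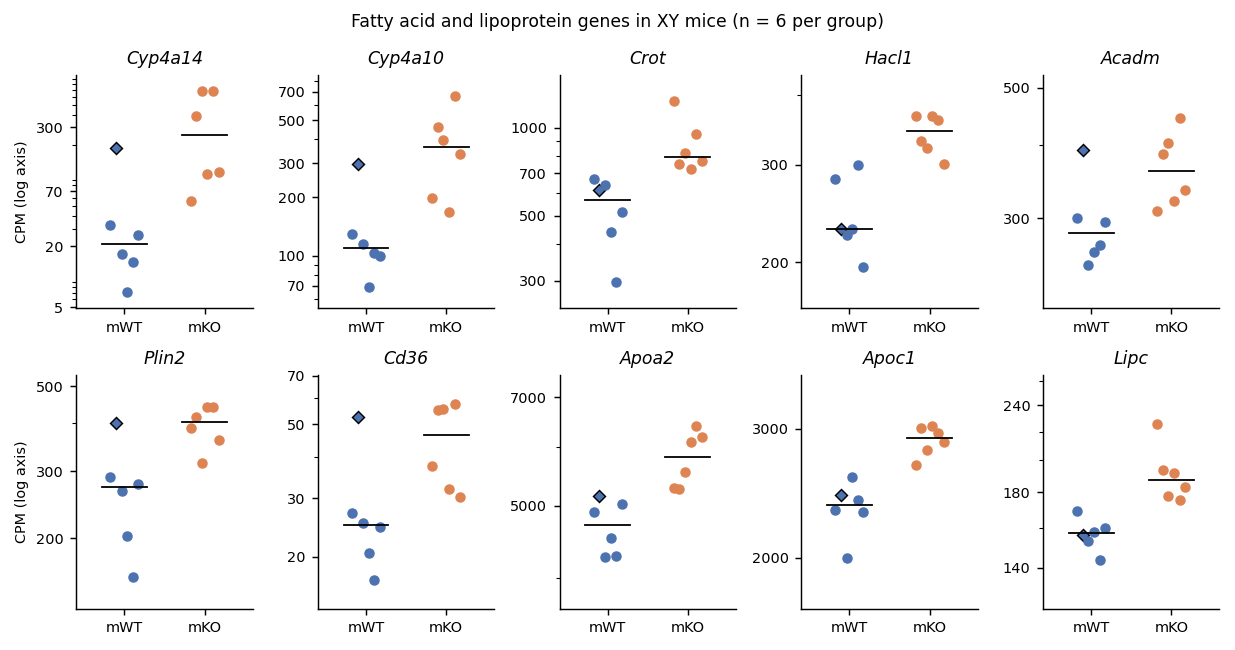
Expression in CPM (log axis) of 10 genes of fatty acid oxidation, lipid droplets and lipoproteins in the 6 mWT (blue) and 6 mKO mice (orange), with the median as a line. The diamond marks mWT mouse 2, which lies apart from the other mWT mice for Cyp4a14, Cyp4a10, Acadm and Cd36. The groups do not overlap for Crot, Hacl1, Apoa2, Apoc1 and Lipc.

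Apolipoproteins gave the highest share of all lists. They coat triglyceride-rich and high density lipoproteins, and the small Apoc proteins steer lipases and receptors on their surface. Of 19 tested members, 7 (36.8%) were higher at the cut-off and 0 were lower, 17 were above 0, and the median log2 fold change was 0.20. Apoc1 was at 2679.9 to 3024 CPM (median 2916) in mKO and 2001 to 2577 CPM (median 2362) in mWT mice, with a log2 fold change of 0.30 ± 0.09 (SE, adjusted p = 0.173 in edgeR). Apoc3, an inhibitor of triglyceride clearance, had a log2 fold change of 0.31 ± 0.09 (SE, adjusted p = 0.143), and its activator counterpart Apoc2 one of 0.39 ± 0.11 (SE, adjusted p = 0.152), although Apoc2 overlaps another annotated gene of the same strand over nearly its whole span. Apoa2, the second protein of high density lipoproteins, differed by 0.31 ± 0.08 (SE, adjusted p = 0.102), and Apoa4, which the liver makes when it holds fat, was at 127 to 309 CPM in mKO and 61.9 to 163 CPM in mWT mice (log2 fold change 0.72 ± 0.23 SE, adjusted p = 0.217). The hepatic lipase Lipc, which remodels particles at the sinusoidal wall, was at 175 to 226 CPM and 144 to 169 CPM, with a log2 fold change of 0.29 ± 0.09 (SE, adjusted p = 0.18). The groups were apart for Apoa2, Apoc1 and Lipc. Apoh, the remaining member past the cut-off, lies outside the rule by which genes were named. Between 5 members (without mWT mouse 3 or mKO mouse 2 or 5) and 8 members (without mWT mouse 1) passed with 1 mouse left out, and 7 passed after the length correction, with a median of 0.17.

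Triglyceride synthesis, lipolysis and particle assembly had 3 of 27 members (11.1%) higher at the cut-off, namely Lipc, the lysosomal acid lipase Lipa (log2 fold change 0.32 ± 0.09 SE, adjusted p = 0.173 in edgeR) and the monoacylglycerol acyltransferase Mogat1 (1.35 ± 0.34 SE, adjusted p = 0.111), which lies near the filter with 0.654 to 1.46 CPM in mKO and 0.244 to 0.872 CPM in mWT mice. The median of the list was 0.02, and without mKO mouse 1 only 1 member passed. De novo lipogenesis, the making of fatty acids from acetyl-CoA under SREBP1, was spread over both sides, with 9 of 20 members above 0 and a median of −0.03. Its 3 leading genes showed no difference beyond the spread of the mice, as Fasn had a log2 fold change of −0.15 (95% interval −0.99 to 0.69), Acaca one of −0.31 (−0.63 to 0.02) and Srebf1 one of −0.32 (−0.73 to 0.08). The member past the cut-off was Insig2, which holds SREBP in the endoplasmic reticulum, at 244 to 446 CPM (median 336) in mKO and 75.4 to 299 CPM (median 133) in mWT mice, with a log2 fold change of 1.08 ± 0.29 (SE, adjusted p = 0.146). Among 17 elongases and desaturases, 2 were higher and 1 was lower at the cut-off (17.6%). Elovl3, which elongates saturated chains, differed by 1.45 ± 0.39 (SE, adjusted p = 0.143), the elongation reductase Hsd17b12 by 0.22 (adjusted p = 0.217) and the delta-6 desaturase Fads2, at 588 to 706 CPM in mKO and 736 to 1042 CPM in mWT mice, by −0.41 ± 0.14 (SE, adjusted p = 0.279). In that list 1 member remained without mWT mouse 5 or mKO mouse 3 and after the length correction.

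No gene of cholesterol synthesis and uptake passed, with 25 tested, 0 at an unadjusted p-value under 0.05 and a median of −0.06. Within the bile acid list, 17 of 25 members were above 0 (median 0.13), and Cyp7a1, the first enzyme of the classical pathway, was the exception as the only member past the cut-off. It ranged from 50.8 to 248 CPM (median 109) in mKO and from 123 to 910 CPM (median 358) in mWT mice, with a log2 fold change of −1.81 ± 0.47 (SE, adjusted p = 0.135 in edgeR), and the groups overlapped through mKO mouse 4 and mWT mouse 1. Of 28 genes of gluconeogenesis, glycolysis and glycogen, 0 passed and the median was 0.00. In the insulin and FoxO list, Grb10, an adaptor that restrains the insulin receptor, was the 1 of 22 that passed, being lower in mKO mice with a log2 fold change of −0.67 (adjusted p = 0.152). Its level was 8.47 CPM in mWT mouse 4 and 3.44 to 5.41 CPM in the other mWT mice, and without that mouse it did not pass (log2 fold change −0.43).

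Glutathione enzymes formed the second group on the higher side. NRF2 is a transcription factor that binds the antioxidant response element and controls the enzymes which make glutathione and keep thioredoxin reduced, and glutathione S-transferases couple the product to electrophiles. In the list of NRF2 targets and other glutathione or thioredoxin enzymes, 5 of 27 tested members (18.5%) were higher at the cut-off and 0 were lower, with 22 above 0 and a median of 0.12. Srxn1, which repairs oxidized peroxiredoxins, was at 41.7 to 48.5 CPM (median 47.6) in mKO and 30.8 to 39.1 CPM (median 38.6) in mWT mice, with every mKO mouse above every mWT mouse and a log2 fold change of 0.32 ± 0.08 (SE, adjusted p = 0.0936 in edgeR). Thioredoxin (Txn1) differed by 0.27 ± 0.08 (SE, adjusted p = 0.173), glutathione reductase (Gsr) by 0.25 ± 0.08 (SE, adjusted p = 0.247) and Gclc, the catalytic subunit of glutathione synthesis, by 0.51 ± 0.17 (SE, adjusted p = 0.217). Nqo1, the quinone reductase often read as the marker of NRF2, was at 6.53 to 13.4 CPM in mKO and 5.69 to 9.96 CPM in mWT mice. It did not pass (log2 fold change 0.32, unadjusted p = 0.0572 and adjusted p = 0.486 in edgeR). Its approximate 95% interval, 0.01 to 0.64, is narrower than the test allows. With 1 mouse left out, 3 members passed without mWT mouse 3, mWT mouse 5 or mKO mouse 5.

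Among 21 glutathione S-transferases, 4 (19.0%) were higher at the cut-off and 18 were above 0, with a median of 0.22, the highest of the 37 lists. They were Gstm1 (log2 fold change 0.26, adjusted p = 0.269 in edgeR), Gstm4 (0.41, adjusted p = 0.191), Gstm6 (0.30, adjusted p = 0.217) and the microsomal Mgst3 (0.62, adjusted p = 0.163), which is also in the previous list. The values of all 4 overlapped between the groups, and the Gstm genes are close copies whose reads can be shared. The count was 2 after the length correction and without mKO mouse 6, and 1 without mWT mouse 4, mWT mouse 5 or mKO mouse 5, while the corrected median stayed at 0.19. Genes of the xenobiotic receptors CAR, PXR and AhR gave 1 of 27 (3.70%), Cyp2c29, with a log2 fold change of 0.46 (adjusted p = 0.161) and near copies in its cluster.

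The proteasome, which breaks down ubiquitinated proteins and is partly under NRF1 and NRF2, had 5 of 42 tested subunits (11.9%) higher at the cut-off, 0 lower and 39 above 0, with a median of 0.14 and 17 subunits at an unadjusted p-value under 0.05. Psmb5, the subunit with chymotrypsin-like activity, was at 34.1 to 45.5 CPM (median 40.0) in mKO and 27.4 to 35.7 CPM (median 33.3) in mWT mice, with a log2 fold change of 0.31 ± 0.09 (SE, adjusted p = 0.143 in edgeR). The regulatory subunits Psmd4, Psmd11 and Psmc2 differed by 0.30, 0.26 and 0.22 (adjusted p = 0.151, 0.143 and 0.216) and the core subunit Psma1 by 0.24 (adjusted p = 0.217). Psmd4 was the one among these 5 in which the groups were apart. These are mostly short transcripts, and after correction for length and GC content 4 subunits passed and the median was 0.11. Between 3 (without mWT mouse 5) and 9 subunits (without mWT mouse 2) passed with 1 mouse left out, and 8 without mWT mouse 4 or mKO mouse 2.

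Promoters were searched for the core of the antioxidant response element, written TGACNNNGC and read on both strands, from 250 bases before to 50 bases after the start site in the RefSeq sequences of GRCm38.p6. Of 9509 tested genes with such a sequence, 16.7% held it. The share was 39.1% among the 23 members of the list of NRF2 targets and glutathione or thioredoxin enzymes with a sequence, 14.3% among 35 proteasome genes and 22.2% among 27 genes of omega-hydroxylation and peroxisomal oxidation. Among the genes past the cut-off it was 13.8% of 174 higher and 17.1% of 146 lower genes. Of the members of that list past the cut-off with a sequence, Srxn1 held the core and Txn1 and Mgst3 did not. The 150 bases before the start site are shown for 3 genes of the groups described here that held it there, 5′ to 3′ on the strand of the gene, with the core in capitals (Slc39a8 and Acox2 hold it in the reverse orientation).
Psmb5 (chr14:54617996-54618145, minus strand): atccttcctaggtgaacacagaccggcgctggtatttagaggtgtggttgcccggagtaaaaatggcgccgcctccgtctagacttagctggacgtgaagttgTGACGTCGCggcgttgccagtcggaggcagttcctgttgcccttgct
Slc39a8 (chr3:135825129-135825278, plus strand): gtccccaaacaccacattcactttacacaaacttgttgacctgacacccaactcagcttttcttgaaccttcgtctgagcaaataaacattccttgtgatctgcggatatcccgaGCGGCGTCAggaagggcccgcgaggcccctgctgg
Acox2 (chr14:8259020-8259169, minus strand): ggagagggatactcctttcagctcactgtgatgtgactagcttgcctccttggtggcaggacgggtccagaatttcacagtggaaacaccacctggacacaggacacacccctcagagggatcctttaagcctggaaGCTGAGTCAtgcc
The core begins 47 bases before the start site in Psmb5, 35 in Slc39a8 and 13 in Acox2. A match of these letters is a description of the sequence and not of binding.

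Genes of energy metabolism and protein synthesis differed little. Of 79 subunits of oxidative phosphorylation, 73 were above 0, yet the median was 0.09 and 2 (2.53%) passed the cut-off, the complex I subunit Ndufa1 (log2 fold change 0.23, adjusted p = 0.189 in edgeR) and the cytochrome oxidase subunit Cox7c (0.19, adjusted p = 0.253). Their transcripts are short, and after the length correction 0 passed and the median was 0.03. Cytosolic ribosomal proteins gave 0 of 80 with a median of 0.03, which was −0.02 after correction. The genes of endoplasmic reticulum translocation, folding and quality control, through which Mup proteins pass, gave 0 of 61, a median of 0.00 and quartiles of −0.06 and 0.03. At an unadjusted p-value under 0.05 there were 3 of these genes. Heat shock and immediate early genes gave 0 of 20 and a median of 0.00.

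The circadian clock runs on a loop in which ARNTL and CLOCK drive the Per and Cry repressors and the nuclear receptors of the REV-ERB family, and in liver it times bile acid and lipid genes. In the clock list 3 of 18 tested members (16.7%) were lower at the cut-off, with a median of −0.27. Per2 was at 11.6 to 23 CPM (median 16.9) in mKO and 20.7 to 46.8 CPM (median 37.9) in mWT mice, with a log2 fold change of −1.11 ± 0.35 (SE, adjusted p = 0.216 in edgeR). The output factor Hlf differed by −0.35 ± 0.12 (SE, adjusted p = 0.266). Arntl, Nr1d1 and Dbp did not pass. Arntl was at 3.37 to 10.2 CPM in mKO and 0.637 to 6.22 CPM in mWT mice (log2 fold change 1.36, 95% interval −0.07 to 2.80), Nr1d1, the gene of REV-ERBα, at 52.5 to 104 CPM and 11.9 to 119 CPM (0.69, −0.22 to 1.61), and Dbp differed by −0.48 (−1.21 to 0.25). These genes swing over the day, and the wildtype mice were spread along them.

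Mice 1 and 3 of the mWT group stood nearest to the mKO mice in some of these genes. They had the highest Nr1d1 of their group (119 and 77.6 CPM, the others at most 49.6 CPM) and the lowest Per2 (20.7 and 30.2 CPM). The same 2 mice had the highest Elovl3 (224 and 374 CPM, the others at most 133 CPM) and the highest Insig2 (299 and 224 CPM, the others at most 138 CPM) among mWT mice. Cyp7a1 was lowest in mWT mouse 1 (123 CPM) and highest in mWT mouse 5 (910 CPM), which also had the lowest Nr1d1 and Dbp of its group. Arntl was highest in the same mouse 5 (6.22 CPM), and Hlf was lowest in mWT mouse 4 (63.2 CPM), so that the mouse nearest to the mKO group was not the same in every clock gene. The mWT mice therefore differed among themselves in these genes, over ranges that reach the mKO values, and the part of this spread in the group differences was not tested. Without mWT mouse 5 or mKO mouse 5, 0 clock genes passed the cut-off. Leaving out mWT mouse 2 or 6 or mKO mouse 1, 4 or 6 left 1, and leaving out mKO mouse 2 gave 5.

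**Figure D5:**
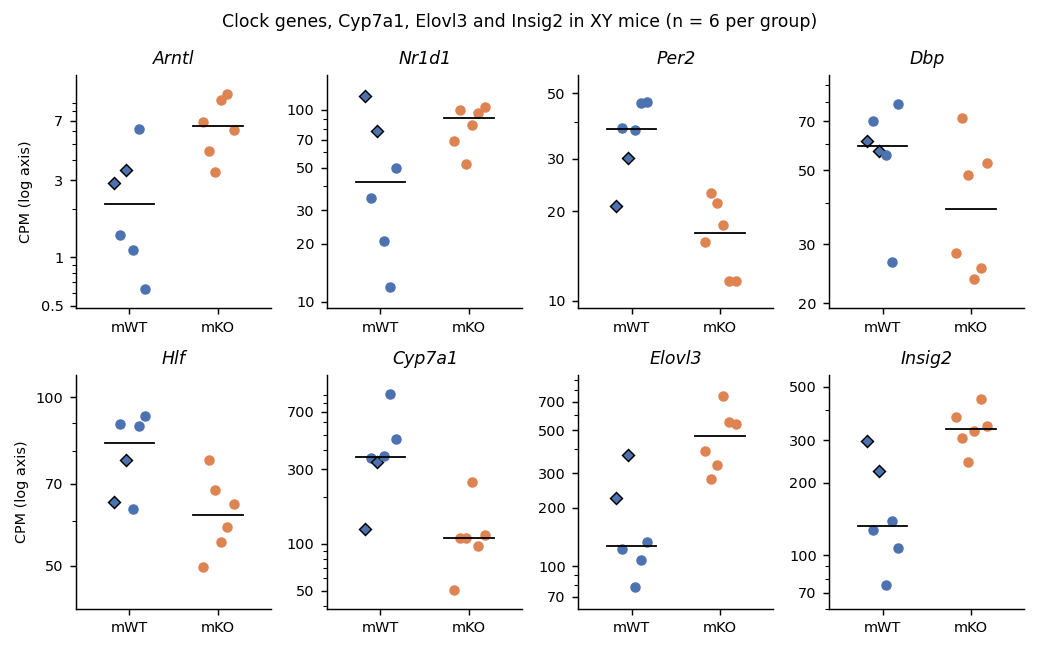
Expression in CPM (log axis) of 5 clock genes and of Cyp7a1, Elovl3 and Insig2 in the 6 mWT (blue) and 6 mKO mice (orange), with the median as a line. Diamonds mark mWT mice 1 and 3, which lie nearest to the mKO mice for Nr1d1, Per2, Elovl3 and Insig2. The groups overlap in each of the 8 genes.

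Genes of hormone signalling lay on both sides at the cut-off. Of 16 tested genes of steroid, thyroid and glucocorticoid signalling, 2 were higher and 2 lower at the cut-off (25%). The estrogen receptor gene Esr1 was at 11.4 to 20.3 CPM (median 13.6) in mKO and 18.4 to 50 CPM (median 22.6) in mWT mice, with a log2 fold change of −0.94 ± 0.25 (SE, adjusted p = 0.14 in edgeR), and the groups overlapped. Hsd11b1, which regenerates active glucocorticoid, differed by 0.27 (adjusted p = 0.281), and Serpina6, the corticosteroid-binding globulin, was at 178 to 228 CPM in mKO and 232 to 319 CPM in mWT mice without overlap (log2 fold change −0.38 ± 0.13 SE, adjusted p = 0.276). Between 1 (without mWT mouse 3 or 4 or mKO mouse 3) and 4 of these genes passed with 1 mouse left out, with 2 passing without mWT mouse 5 or 6 or mKO mouse 1, 5 or 6.

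The lists of the program that sets male and female liver expression had 0 or 1 member past the cut-off. The growth hormone and STAT5 axis gave 0 of 16 with a median of −0.06, and the female-biased genes 0 of 23 with a median of 0.03. Genes biased to XX mice can pass the filter through the XX libraries alone. Among them, A1bg had a mean of 0.0686 CPM in mKO and 0.0611 CPM in mWT mice, and Cyp2b9 one of 0.289 and 0.0706 CPM. Such genes lie near or under the floor in XY mice and could hardly pass, so nothing is read from the female-biased list. Male-biased genes, to which the Mup genes themselves belong in wildtype liver, gave 1 of 21 (Elovl3) with a median of −0.11 and 14 members below 0. The mWT mice themselves differed widely in male-biased genes, with list medians from −0.51 in mouse 1 to 0.53 in mouse 4 on a log2 scale relative to the mean of the 12 mice, and mouse 1 also had the lowest Mup total and mouse 4 the highest of the 6.

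Cell cycle and replication genes had the lowest median of all lists (−0.47), with 20 of 24 tested members below 0 and 2 (8.33%) lower at the cut-off. In adult liver few hepatocytes divide and these transcripts are rare. Cyclin D1 (Ccnd1), the cyclin of entry into the cycle, was at 11.9 to 18.8 CPM (median 15.9) in mKO and 16.9 to 47.7 CPM (median 22.8) in mWT mice, with a log2 fold change of −0.74 ± 0.26 (SE, adjusted p = 0.274 in edgeR), and Brca1, a gene of DNA repair, at 1.0 to 3.02 CPM and 1.58 to 4.44 CPM (log2 fold change −0.91 ± 0.28 SE, adjusted p = 0.189). The proliferation marker Mki67 had a log2 fold change of −0.76 with a 95% interval from −1.64 to 0.11. The wildtype mice again were spread, from a list median of −0.28 in mWT mouse 6 to 0.71 in mWT mouse 4. A single member passed without mWT mouse 1, mWT mouse 4 or mKO mouse 2, 4 or 5. After the length correction the median was −0.43.

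Secreted liver proteins other than Mup were mixed. Of 28 acute phase genes, 4 (14.3%) were higher at the cut-off and the median was 0.05. The fibrinogen chain Fga was at 3386 to 4925 CPM in mKO and 2726 to 4126 CPM in mWT mice (log2 fold change 0.35 ± 0.11 SE, adjusted p = 0.217 in edgeR), and Fgg at 3402 to 4928 CPM and 2589.9 to 3652 CPM (0.35 ± 0.11 SE, adjusted p = 0.201). Crp was at 524 to 671 CPM and 408 to 499 CPM, without overlap (0.32, adjusted p = 0.266), and the remaining member was Il1rap, a coreceptor of interleukin 1 (0.26, adjusted p = 0.146). Without mWT mouse 3 or mKO mouse 1 a single member passed. Complement and coagulation gave 3 of 36 (8.33%), with the mannose-binding lectin gene Mbl1 (0.36, adjusted p = 0.122) and C8g (0.22, adjusted p = 0.242) higher and C2 (−0.33, adjusted p = 0.201), which overlaps a gene of its own strand, lower, and 1 passed without mWT mouse 4 or 5. Interferon-stimulated genes gave 0 of 28, and genes of MHC antigen presentation 0 of 22. Among 21 plasma carriers and lipocalins outside the Mup family (median 0.12), the thyroxine and retinol carrier Ttr was higher at 4286 to 5418 CPM in mKO and 3401 to 4401 CPM in mWT mice (0.30, adjusted p = 0.212), and 1 other member was lower at the cut-off. Ttr did not pass after the length correction (log2 fold change 0.23), which brought the median of the carriers to 0.06, or without mWT mouse 2 or 3 or mKO mouse 5 or 6.

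Metal and amino acid transport contributed separated genes. Of 17 genes of metallothioneins, zinc and iron, 2 (11.8%) passed, Slc39a8 and the manganese exporter Slc30a10, which was at 46.5 to 72.7 CPM (median 51.1) in mKO and 21.2 to 40.9 CPM (median 28.9) in mWT mice, with a log2 fold change of 0.89 ± 0.28 (SE, adjusted p = 0.208 in edgeR). The groups were apart in both, and the median of the list was 0.03. In the list of the integrated stress response and amino acid supply, 2 of 22 (9.09%) passed, Slc3a2 and the stress transcription factor Atf5 (log2 fold change 0.61 ± 0.20 SE, adjusted p = 0.217), while the median was −0.04. Either list had 1 member past the cut-off without mWT mouse 4 or mKO mouse 5, and the second also without mWT mouse 5 or mKO mouse 4 or 6. Amino acid catabolism gave 2 of 32 (6.25%), Kynu of the tryptophan route (0.32, adjusted p = 0.213) and Amt of glycine cleavage (0.51, adjusted p = 0.281), with a median of 0.07, 4 members without mWT mouse 1, 0 without mWT mouse 4 and 1 without each of the other mice except mWT mouse 3 and mKO mice 2 and 3. Zonation was without calls, as pericentral genes gave 0 of 18 (median −0.01) and periportal and urea cycle genes 0 of 20 (median 0.08). The methionine and one-carbon list gave 0 of 20 with a median of 0.02.

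Whether the effect belonged to XY mice was asked through the difference between the effects in XY and XX mice. It passed an unadjusted p-value of 0.01 in 143 of the 12313 genes (1.16%) and, after adjustment, in Zfp37 alone. Zfp37 had means of 0.407 CPM in fKO and 0.381 CPM in fWT mice and met the filter through the mKO libraries. Being the only gene to pass is therefore not independent of its level in mKO mice. Of the 19 apolipoprotein genes, 2 had an unadjusted p-value under 0.01 for the difference, and their effects lay at 0.30 in XY and −0.06 in XX mice for Apoc1 (adjusted p = 0.816 for the difference in edgeR) and at 0.31 and −0.02 for Apoa2 (adjusted p = 0.816). The apolipoproteins, like the genes that follow, were looked at because of their XY effect, which is part of the difference. Nothing is therefore read from how many of them passed. For Cyp4a14 the effects were 2.85 and −0.44 (adjusted p = 0.816), for Cd36 0.68 and −0.24 (adjusted p = 0.816) and for Psmb5 0.31 and −0.12 (adjusted p = 0.745). Esr1 lay at −0.94 in XY and 0.45 in XX mice (adjusted p = 0.745). Other genes past the cut-off in XY mice had effects of the same sign in XX mice. The XY and XX effects were 0.26 and 0.27 for Il1rap and 0.32 and 0.23 for Lipa. For Fga they were 0.35 and 0.23, and for Elovl3 1.45 and 0.80 (adjusted p for the difference 0.915 or more in these genes). Of the 9 genes that rose or fell in XY mice, Zfp37 apart, the adjusted p-values for the difference were 0.62 for Slc3a2 and Tpst1, 0.745 for Glo1 and Cobl and 0.816 or more for the others. In XX mice the list medians were −0.06 for the droplet list, −0.04 for mitochondrial oxidation, 0.00 for apolipoproteins and 0.03 for the proteasome. They were 0.20 for the acute phase proteins and 0.10 for the bile acid list. A difference between the XY and XX effects of these lists was not tested.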

How the data were processed

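Liver mRNA was sequenced from 24 mice with 1 library each. The authors prepared stranded libraries, sequenced them as single-end reads, removed low-quality bases with fastp, mapped reads to GRCm38.p6 by STAR and summarized them per Ensembl gene in featureCounts. The deposited values are raw counts. The annotation release, strand setting and handling of multimapping reads are not given in the sources used here, so counts of near-identical or overlapping genes are uncertain. Of 25746 gene IDs, 25635 were matched to GENCODE M21 and 111 were not. Groups and mouse numbers were taken from the sample labels.

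Counts were analysed with edgeR 4.0.16 in R 4.3.3. A gene entered the test if 6 or more libraries reached 0.66 CPM (12330 genes, of which 17 are Mup genes), library sizes were scaled by TMM, and a robust quasi-likelihood model gave each of the 4 groups its own mean and took the spread from all 24 libraries together. CPM values are TMM-scaled, and standard errors are the log2 fold change divided by the root of the F statistic. Within a group, any pair of libraries differed beyond sampling noise (lowest chi-square per gene 15.7). Floors cover counting error only.

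The gene lists, their members and the genes named were chosen with earlier results of these data known. Named genes were those with an adjusted p-value under 0.05, the 10 higher and 10 lower genes with the smallest p-values at the cut-off, the anchor genes of the lists, and up to 5 members per list past the cut-off. A few of these genes are not reported here. Of the listed symbols, 2 (Tf and Lcn13) were not found. In simulated counts for mKO against mWT (12330 genes), 78% of 100 genes changed by 0.5 and 92% of 100 changed by 1 on the log2 scale passed the cut-off, as did 0.989% of the unchanged genes.

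Alternatives were DESeq2 1.42.0, its size factors, no filter, filterByExpr, a word for word reading of the study's filter, XY libraries only, removal of the Mup genes, non-robust dispersions, edgeR 4 deviances, a replicate block and each mouse left out. A length and GC correction was chosen after seeing the data. Figures were drawn with matplotlib 3.10.9.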

Additional observations from a re-analysis of the deposited data

Results flagged for a closer look

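In groups of 6 mice, single values were compared with the rest of their group by Dixon's ratio of the nearest gap to the range, at its 95% critical value. Of 178 groups of named genes tested, 15 had such a value, and chance flags about 1 in 20 groups. Mouse 2 of the mWT group stood high for 4 genes of fatty acid uptake and oxidation, with 185 CPM of Cyp4a14 (highest of the others 32.2 CPM), 298 CPM of Cyp4a10 (130 CPM), 392 CPM of Acadm (300.2 CPM) and 52.7 CPM of Cd36 (27.2 CPM). These values lie within or near the range of the mKO mice.

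Mouse 4 of the mKO group stood high for genes of lipid and bile acid synthesis, with 849.9 CPM of Fasn (highest of the others 369 CPM) and 248 CPM of Cyp7a1 (114 CPM). Mouse 1 of the same group stood high for 2 acute phase genes and a lipase, with 4928 CPM of Fgg (3961 CPM), 671 CPM of Crp (574 CPM) and 226 CPM of Lipc (193 CPM).

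The other flagged values were single. Nfic was at 96.9 CPM and Srxn1 at 30.8 CPM in mWT mouse 5, and Kynu at 286 CPM in mWT mouse 3. Among mKO mice, Srxn1 was at 41.7 CPM and Hsd17b12 at 223 CPM in mouse 3, and Slc30a10 at 72.7 CPM in mouse 5. The effect of the deletion differed between XY and XX mice for Zfp37, by 3.402 on the log2 scale (adjusted p = 0.00562 for the interaction in edgeR). Zfp37 met the filter through the mKO libraries, in which it was high.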

How the results depend on the processing

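The count of genes past the cut-off (417) stayed within 1.5 times under every alternative except those that left out a mouse, where it ran from 268 (without mWT mouse 5) to 509 (without mWT mouse 1). With 1 mouse left out, its higher part ran from 137 (without mWT mouse 5) to 273 (without mWT mouse 2), with 146 without mKO mouse 5, and its lower part from 131 to 245. The count with an adjusted p-value under 0.05 (9) moved most. It was 126 with DESeq2, 34 with the XY libraries alone, 15 with the length and GC correction, 1 with the word for word filter and 2 with the Mup genes removed first. With 1 mouse left out it ran from 2 (without mKO mouse 5) to 43 (without mWT mouse 1), with 24 without mWT mouse 2, 3 without mWT mouse 4 or 6, 4 without mKO mouse 2 or 3, and 5 without mWT mouse 5 or mKO mouse 6. The cause was not tested. The 1 named gene whose effect differed between XY and XX mice after adjustment (Zfp37) became 4 genes with DESeq2 and 0 with the word for word filter, which left fewer low genes tested.

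Of the 89 named genes, 1 changed its direction, Fasn, whose log2 fold change ran from −0.653 (without mKO mouse 4) to 0.0828 (without mWT mouse 3). Same-numbered mice did not deviate together (correlations from −0.128 to 0.170 over 6 numbers, and 1 mouse correlated best with its own number), so the mouse numbers do not pair the samples. With the mouse number as a replicate block, 355 genes passed the cut-off and 9 had an adjusted p-value under 0.05, and 291 of the 355 were among the 417. In single lists, members past the cut-off went with the block from 4 to 0 for glutathione S-transferases and from 3 to 5 for the clock. Lists with 0 or 1 member past the cut-off gained at most 2 with 1 mouse left out. Proteasome subunits past the cut-off were 10 with DESeq2 and with the XY libraries alone. Depth limits genes near 0.66 CPM such as Mogat1, which was not tested in 7 of 23 alternatives.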
